A study of Mus musculus with 48 samples.

Results

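The 24-hour rhythm of gene expression was described in inguinal white fat of mice on TAN feeding, a schedule of 2 meals a night, using all 24 TAN libraries of the 48 libraries in the series, 4 at each of 6 times of day (12 AM, 4 AM, 8 AM, 12 PM, 4 PM and 8 PM). The TAN mice were C57BL/6 mice of 8 months in the labels, and male mice of the substrain C57BL/6J in the study's methods, that had food only from 9 to 11 PM and from 5 to 7 AM, with lights on from 8 AM to 8 PM. The other 24 libraries came from mice of the same strain and age with food at all times (ad-lib), taken at the same 6 times, and enter only the comparison of rhythms between diets near the end. No mouse carried a transgene or a drug treatment in the labels, and the libraries at each time are numbered 1 to 4. The labels do not say more about where these 4 came from, so p-values measure the spread between these samples.

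The TAN libraries held 15685080 to 25440243 counts. The series text speaks of stromal vascular cells, whereas the study's methods describe the whole subcutaneous depot. The summed level of the adipocyte markers was 4940 to 47448 CPM (counts scaled to the size of the library) in the TAN libraries, so fat cell RNA was abundant in all of them. In bulk tissue, fewer cells of a type and less RNA per cell cannot be told apart. The lymphocyte markers summed to 9.36 to 36.7 CPM in 6 libraries (12 AM replicates 2 and 4, 4 PM replicates 1, 2 and 4, and 8 PM replicate 4) and to 298 to 2433 CPM in the other 18. At 8 PM, replicates 1 and 2 were low in adipocyte markers (8005 and 4940 CPM) and high in lymphocyte markers (2344 and 2433 CPM). The time labels also need care. Over 952 genes, each of the 24 TAN libraries matched, in an expression table that accompanies the study, the column of the same diet and animal number labelled 12 h away, and 0 matched the same time. The hours below follow the labels of the deposited libraries. Under the other labelling every peak hour moves by 12 h (Nr1d1 from 14.9 to 2.94 h, Arntl from 6.23 to 18.2 h), while amplitudes and tests stay as given.

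The molecular clock of most cells is a feedback loop of transcription. The activators BMAL1 (encoded by Arntl) and CLOCK or its relative NPAS2 bind E-box sequences and switch on Per and Cry genes, whose proteins then repress the activators. REV-ERB proteins (Nr1d1 and Nr1d2) repress Arntl and Nfil3, ROR proteins compete with them, and the activators DBP, TEF and HLF share D-box sequences with the repressor NFIL3. In fat and liver, the time of meals is known to act on the phase of this loop beside the light cycle.

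Promoters of clock genes are shown because the members' rhythms are read below by these roles. The 250 bases before the RefSeq transcript start (build GRCm38.p6) were searched on both strands for the E-box CACGTG and the D-box TTATGTAA. The E-box was present in 5 of the 18 clock genes with a promoter sequence (27.8%), against 9.29% of the 12287 tested genes with one. The D-box was present in 1 of 18 (5.56%), against 0.708%. A match is a description of the letters only. Windows around the matches are given 5′ to 3′ on the gene's strand, with the matches in capitals.
Cry1 (E-box, chr10:85185094-85185129, minus strand): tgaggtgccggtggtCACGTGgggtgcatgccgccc
Per1 (E-box, chr11:69098768-69098803, plus strand): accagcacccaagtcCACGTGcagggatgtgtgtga
Ciart (E-box, chr3:95882252-95882359, minus strand): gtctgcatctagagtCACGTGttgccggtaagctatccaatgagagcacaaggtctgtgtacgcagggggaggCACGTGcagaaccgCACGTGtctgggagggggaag
Tef (E-box, chr15:81802531-81802566, plus strand): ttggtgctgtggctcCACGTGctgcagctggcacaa
Bhlhe41 (E-box, chr6:145865553-145865588, minus strand): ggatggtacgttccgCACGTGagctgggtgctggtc
Per3 (D-box, chr4:151044801-151044885, minus strand): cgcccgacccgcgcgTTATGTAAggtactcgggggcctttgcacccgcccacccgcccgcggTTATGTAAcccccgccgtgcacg

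A rhythm was fitted to each of 18225 genes as a cosine and a sine of 24 h on log2 CPM. The amplitude is the fitted rise from the mean to the peak on the log2 scale, so an amplitude of 1 is a 4-fold rise from trough to peak. The peak hour is read from the same curve on the 24-hour clock, with 0 at midnight. Of the genes tested, 3392 (18.6%) had a 24-h rhythm by edgeR's quasi-likelihood test at an adjusted p under 0.05. Of the 23 clock genes tested, 16 were among them, 6 of which also passed a stricter test described below, and the median amplitude of the 23 was 0.91 against 0.38 over all genes tested. Leaving out any 1 library left 16 or 17 of the 23 clock genes with a rhythm.

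The REV-ERB genes peaked in the light phase. Nr1d1 (ENSMUSG00000020889, chr11:98767932-98775333 in GRCm38), which encodes REV-ERB alpha, stood at 64.8, 230.1, 95.2 and 131 CPM in the 4 libraries of 4 PM and at 4.30, 4.69, 3.96 and 2.75 CPM in those of 4 AM. At 12 PM it was at 53.5, 67.1, 88.3 and 78.8 CPM and at 8 AM at 6.85, 12.6, 11.03 and 16.1 CPM. Every 12 PM and 4 PM library thus lay above every library of the other 4 times, and the 4 PM mean was 33.2-fold the 4 AM mean. The fitted amplitude was 2.53 ± 0.20 (SE, n = 24) with a peak at 14.9 ± 0.297 h (adjusted p = 4.33e-07). Its paralog Nr1d2 had an amplitude of 1.22 ± 0.09 and a peak at 17.7 ± 0.271 h (adjusted p = 1.02e-07), with 219, 243, 209 and 277 CPM at 4 PM and 32.8, 36.9, 43.7 and 38.9 CPM at 8 AM. The ROR genes Rora and Rorb did not pass the test. Nr1d1 overlaps Thra on the other strand, and since the strand setting of the counting is not given in the sources used here, reads of overlapping genes cannot be told apart.

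The activators peaked in the hours around lights on. Arntl (ENSMUSG00000055116, chr7:113207465-113314126) stood at 43.8, 45.9, 49.3 and 38.8 CPM at 8 AM and at 5.57, 6.86, 2.87 and 1.41 CPM at 8 PM. The 8 AM libraries were above all others, and the 4 PM and 8 PM libraries, at 1.41 to 7.21 CPM, were below all others. The 8 AM mean was 10.6-fold the 8 PM mean, and the fitted peak was at 6.23 ± 0.325 h with an amplitude of 1.84 ± 0.16 (adjusted p = 2.34e-06). Npas2 was at 4.59, 7.99, 5.08 and 5.25 CPM at 8 AM and had no count in any 8 PM library. Against a floor of 3 counts over the 8 PM group it was at least 165-fold higher at 8 AM, and its peak was at 8.01 ± 0.325 h (adjusted p = 3.06e-04). Clock peaked at 7.42 ± 0.452 h with an amplitude of 0.83 ± 0.10 (adjusted p = 1.35e-04), and its 8 PM libraries, at 29.2, 21.8, 25.03 and 39.0 CPM, were below all others.

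The repressors were spread over the clock. Cry1 (ENSMUSG00000020038, chr10:85131700-85185064), whose protein blocks the activators, stood at 43.0, 46.2, 44.5 and 49.7 CPM at 12 AM, at 28.3, 23.7, 27.9 and 36.9 CPM at 4 AM and at 41.1, 39.1, 46.9 and 36.8 CPM at 8 AM. It was at 13.8, 11.4, 11.7 and 11.6 CPM at 12 PM and at 5.82, 10.5, 7.20 and 10.6 CPM at 4 PM. The 12 PM and 4 PM libraries lay below all others, and the 4 AM libraries lay below those of 12 AM and overlapped those of 8 AM. The 24-h amplitude was 1.07 ± 0.08 and the peak fell at 2.25 ± 0.272 h (adjusted p = 3.76e-07). Per2, which encodes a period protein, peaked at 23.1 ± 0.961 h (amplitude 0.94 ± 0.24, adjusted p = 0.0108), with 11.004, 9.11, 11.7 and 41.3 CPM at 12 AM and 2.59, 2.62, 4.65 and 3.52 CPM at 12 PM. At 4 PM, Per2 was uneven, at 2.56, 18.01, 2.83 and 17.3 CPM. Per3 peaked at 19.1 h (amplitude 0.71 ± 0.19, adjusted p = 0.00865), whereas Per1 (0.62 ± 0.24 at 18.5 h, adjusted p = 0.0587) and Cry2 (adjusted p = 0.869) did not pass the test. Ciart, a repressor of CLOCK and BMAL1, peaked at 18.5 ± 0.593 h with an amplitude of 1.83 ± 0.28 (adjusted p = 7.05e-04). The basic helix-loop-helix repressors Bhlhe40 and Bhlhe41 peaked at 16.8 and 17.2 h with amplitudes of 0.75 ± 0.19 and 1.01 ± 0.20. Csnk1d and Csnk1e, kinases of the period proteins, did not pass the test.

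Among the D-box factors, the activators peaked around dusk and the repressor before dawn. Dbp (ENSMUSG00000059824, chr7:45705088-45710203) was at 71.8, 204, 149 and 157 CPM at 4 PM and at 6.30, 12.2, 7.08 and 12.9 CPM at 4 AM, a 15.1-fold difference of means with no overlap. At 8 PM its libraries, at 58.5, 43.8, 142 and 249 CPM, spread more widely than at any other time, and the lower pair came from the replicates low in adipocyte markers. Dbp peaked at 17.996 ± 0.322 h (amplitude 2.19 ± 0.18, adjusted p = 5.07e-07), followed by Tef at 19.4 h (0.91 ± 0.15, adjusted p = 5.15e-04) and Hlf at 19.999 h (0.96 ± 0.20, adjusted p = 0.00163). The repressor Nfil3 peaked at 4.36 ± 0.468 h with an amplitude of 1.296 ± 0.159 (adjusted p = 1.73e-04). Nfil3 was at 30.4, 22.6, 29.3 and 25.3 CPM at 8 AM and at 5.70, 4.20, 3.25 and 1.55 CPM at 4 PM, and these groups did not overlap. Dbp overlaps Sphk2, Ciart overlaps C920021L13Rik, Per3 overlaps Camta1 and Tef overlaps Gm17597.

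**Figure D1:**
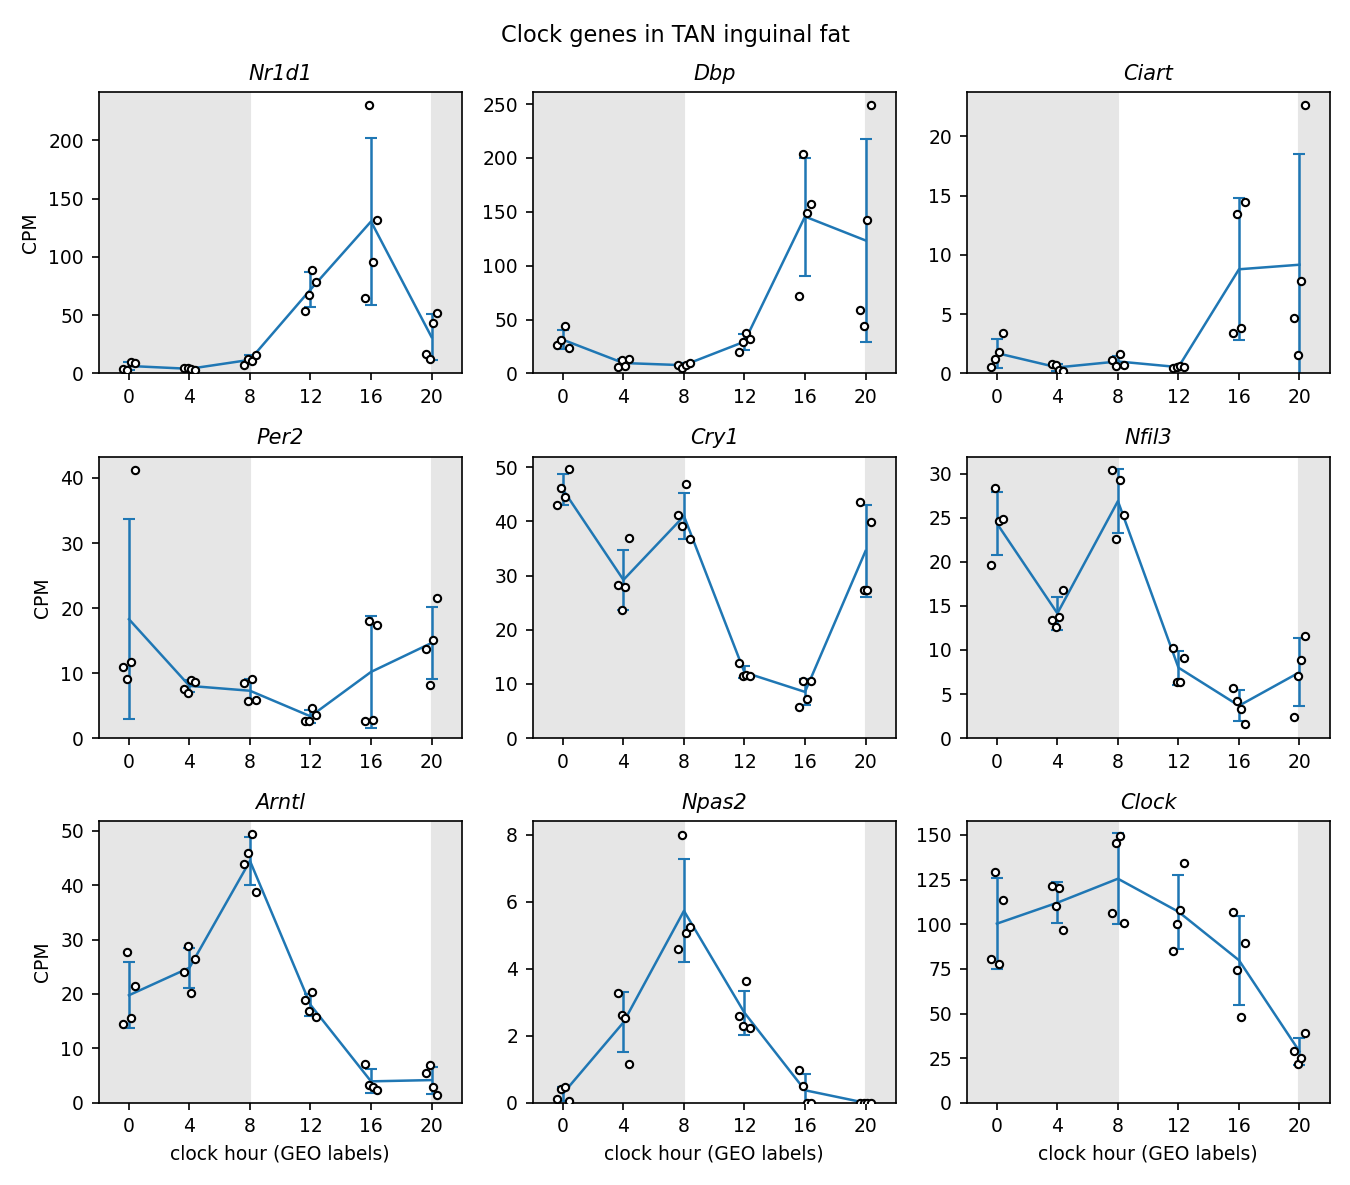
Level of 9 clock genes in TAN fat by clock hour, in CPM on the vertical axis of each panel, with points for the 24 libraries, a line through the means of 4, bars of 1 SD and grey for the dark hours. Nr1d1 and Dbp were high at 4 PM, Arntl, Npas2 and Clock at 8 AM, and Cry1 at both 12 AM and 8 AM.

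In the list of clock output genes, 10 of 15 passed the test, against 18.6% of all genes, with a mean peak at 21.9 h. Of these, 4 peaked within 2 h of 12 AM, 3 of 8 PM, 2 of 4 PM and 1 of 4 AM. Wee1, a kinase that holds cells before mitosis, peaked at 22.7 h (amplitude 0.79), Nampt, the rate-limiting enzyme of NAD salvage, at 23.5 h (0.53) and the deubiquitinase Usp2 at 23.6 h (0.78 ± 0.24). Usp2 averaged 24.8 ± 12.6 CPM (SD, n = 4) at 12 AM and 5.09 ± 1.07 CPM at 12 PM, and these groups did not overlap. The kinase gene Pim3 instead peaked at 14.6 ± 0.638 h (0.65 ± 0.11, adjusted p = 0.0016) and stood at 297, 276, 279.8 and 247 CPM at 4 PM, above all its other libraries.

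Peak hours were uneven across all rhythmic genes. Of the 3392, 1729 (51.0%) peaked within 2 h of 8 AM and 1143 (33.7%) within 2 h of 8 PM, while the windows around 12 AM, 4 AM, 12 PM and 4 PM held 4.22, 5.04, 3.66 and 2.42% of them. The genes of the 8 AM window had a median amplitude of 0.78 and those of the 8 PM window 0.38. Their median exonic length was 6292 and 2398 bases, against 3637 over all genes tested, and 77.3% and 94.3% of them were protein-coding. The 8 AM window also held 111 genes of the annotation class TEC (gene models that await experimental support), and the 8 PM window held 0, of 492 such genes tested. Which of these windows was the larger depended on the filter. With only genes of at least 10 counts in every library, 38.9% of the rhythmic genes fell near 8 AM and 43.8% near 8 PM.

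**Figure D2:**
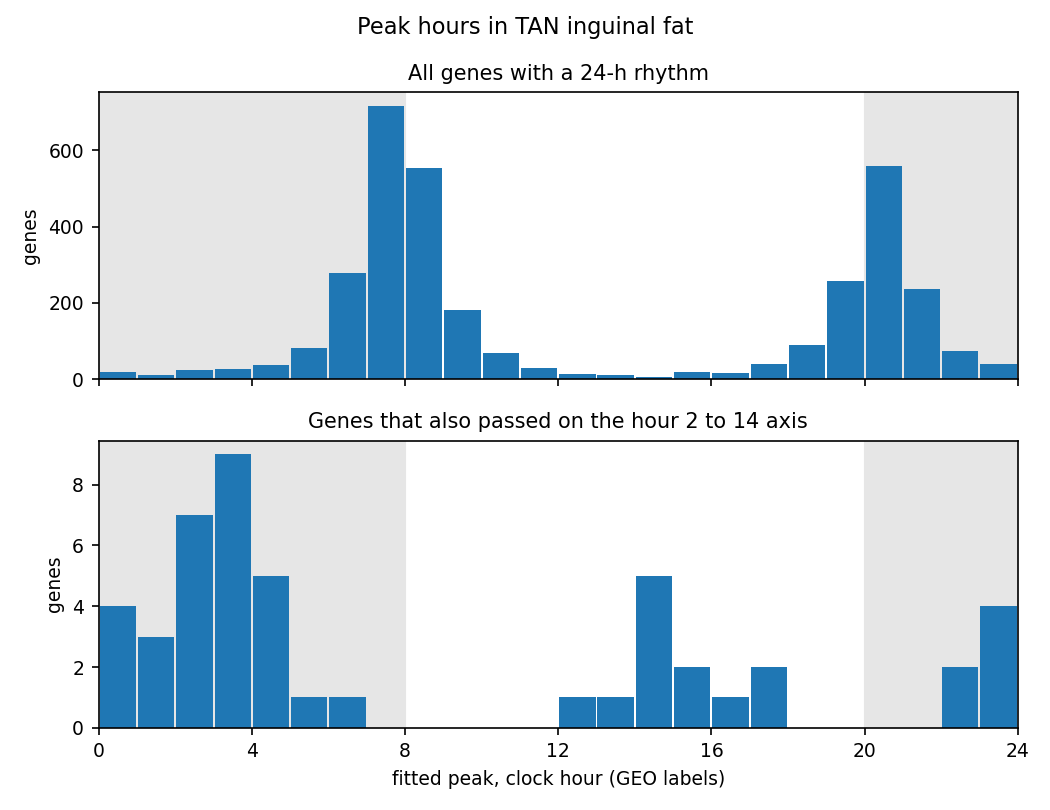
Number of genes by peak hour, over all 3392 genes with a 24-h rhythm in TAN and over the 48 that passed the test along hours 2 and 14. The upper counts crowd around 8 and 20 h, and the lower ones lie mostly between 22 and 6 h.

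Library properties moved with this division of the day. Counts on TEC genes made up 0.0762 to 0.109% of a library (median 0.0858%) at 4 AM, 8 AM and 12 PM, and 0.0294 to 0.0847% (median 0.0412%) at 4 PM, 8 PM and 12 AM. In the ad-lib libraries the order of the medians was the other way round, at 0.0688% and 0.0978%. The summed adipocyte markers spanned 14100 to 20039 CPM in the first set of TAN times and 4940 to 47448 CPM in the second, and the 6 libraries low in lymphocyte markers all belonged to the second. When the TEC share was added to the fit as a covariate (an alternative chosen after seeing the data), 75 genes passed the test. Without the pair of 8 PM libraries low in adipocyte markers 6682 genes passed the test, and without the 6 libraries low in lymphocyte markers 5325. The time of day and the TEC share run along the same axis from 8 AM to 8 PM, so in these libraries they cannot be told apart for genes that peak near those hours.

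**Figure D3:**
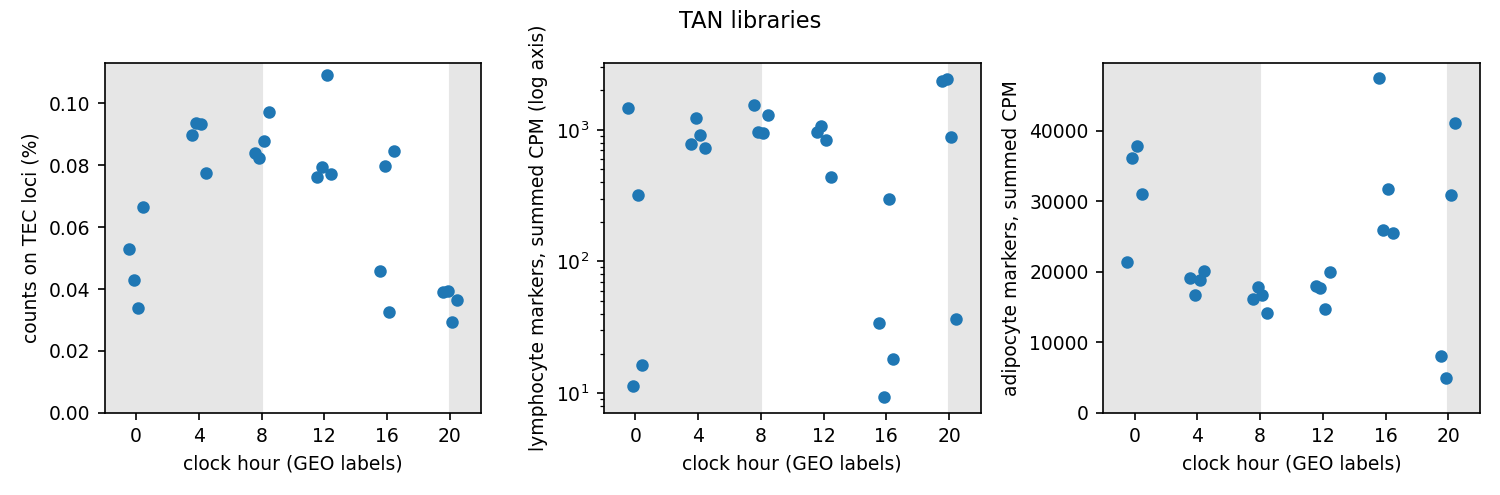
Share of counts on TEC genes in percent, summed lymphocyte markers (log axis) and summed adipocyte markers in CPM, for the 24 TAN libraries by clock hour. The TEC share was 0.0762% or more in all 12 libraries from 4 AM to 12 PM, and at 12 AM, 4 PM and 8 PM the libraries spread widely in both marker sums.

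The axis from 2 to 14 h lies at right angles to that one. A test along it alone can hardly be passed by genes that peak near 8 or 20 h, however strong their rhythm. It was passed by 48 genes (0.263% of 18225), all of which also had a 24-h rhythm. Of these, 36 were higher toward hour 2 and 12 toward hour 14, and 6 of the 48 were clock genes (Cry1, Nr1d1, Nr1d2, Nfil3, Dbp and Arntl). Leaving out 1 library at a time gave 20 genes without 12 AM replicate 2 and 75 without 8 PM replicate 2. On the hour 2 side stood chaperone genes. Hspa8, the constitutive HSP70, was at 3111, 3283, 2995 and 3238 CPM at 12 AM and at 932, 628, 914 and 682 CPM at 4 PM, and the 12 AM libraries were above all others. Its amplitude was 0.74 ± 0.09 and its peak at 2.02 ± 0.484 h (adjusted p = 7.32e-04). Hsph1, a partner of HSP70, had an amplitude of 0.97 ± 0.14 and a peak at 3.05 h, and Chordc1, a partner of HSP90, 0.54 at 1.596 h. Noct, the rhythmic phosphatase nocturnin, peaked at 4.50 h (1.04 ± 0.12, adjusted p = 1.15e-04) and P4ha1, a collagen prolyl hydroxylase, at 2.07 h (0.47 ± 0.06). On the hour 14 side, beside Nr1d1 and Pim3, stood Cirbp, which encodes an RNA-binding protein induced by cold, and Stc2 (0.74 at 15.57 h), a secreted stanniocalcin. Cirbp was at 120.35, 113, 108 and 66.6 CPM at 12 PM and at 39.9, 25.5, 40.2 and 30.2 CPM at 12 AM, with no overlap (amplitude 0.57, peak 14.9 h).

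The promoters of the heat shock and cold-inducible list were searched for a heat shock element. The letters GAANNTTC, on either strand, were found before the start of 6 of the 10 chaperone and cold-inducible genes with a promoter sequence, against 6.19% of the 12287 genes. Of these 6, Dnaja1 and Hspe1 had a 24-h rhythm, while Hspa1a, Hspa1b, Hspd1 and Hspb1 did not pass the test, and Dnaja1 alone passed along hours 2 and 14. The windows below hold the matches of the rhythmic pair. The Hspe1 window lies in a promoter shared with Hspd1, where both genes count the same match. Hspa1a and Hspa1b hold the same letters around their match, so the 6 genes are not 6 independent cases.
Dnaja1 (chr4:40722329-40722366, plus strand): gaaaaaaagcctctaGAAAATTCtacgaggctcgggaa
Hspe1 (chr1:55088049-55088086, plus strand): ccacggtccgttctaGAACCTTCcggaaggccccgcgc

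Members of the heat shock and cold-inducible list did not share a phase. Of 15 tested, 8 had a 24-h rhythm (53.3%, against 18.6% of all genes). Dnaja1 (amplitude 0.46) peaked at 0.664 h, Hspe1 (0.54) at 22.3 h, Dnajb1 (0.38) at 22.4 h, Hsp90aa1 (0.34) at 4.45 h and Rbm3 (0.45), a cold-inducible RNA-binding protein like Cirbp, at 20.1 h.

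Genes known to respond to glucocorticoids, the adrenal hormones that peak before the active phase of nocturnal animals, were rhythmic in 6 of 13 cases. The share over all genes was 18.6%, and the mean peak of the 6 was at 0.15 h. Tsc22d3, which encodes the glucocorticoid-induced leucine zipper, was at 255, 309, 315 and 657 CPM at 12 AM, at 277, 271, 323 and 488 CPM at 8 PM and at 101, 97.4, 76.2 and 89.1 CPM at 12 PM. All 12 AM and 8 PM libraries were above those of the other 4 times, and the fitted amplitude was 0.97 ± 0.10 at 22.7 ± 0.385 h (adjusted p = 1.43e-05). Fkbp5, a co-chaperone of the glucocorticoid receptor, peaked at 23.7 h (0.80 ± 0.10, adjusted p = 1.52e-04) and Sgk1, a kinase, at 22.2 h (0.31, adjusted p = 0.0499). The metallothionein Mt1 peaked earlier, at 20.1 h (0.89), and Cdkn1a, an inhibitor of the cell cycle, and Pdk4, which restrains glucose oxidation, later, at 4.94 and 4.45 h.

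In cholesterol synthesis, 9 of 21 genes were rhythmic (42.9%, against 18.6% of all genes) with a mean peak at 2.07 h. Cyp51, the lanosterol demethylase, was at 91.6, 218, 166 and 151 CPM at 12 AM, at 99.7, 113, 79.8 and 91.4 CPM at 8 AM, and at 53.3, 38.4, 55.2 and 48.8 CPM at 4 AM between them. It was high at 12 AM and 8 AM, the first time after each meal, and the 4 AM libraries lay below both without overlap. Its 24-h amplitude was 0.54 with a peak at 3.45 h. The fitted 24-h peaks of Mvd (0.63 ± 0.13 at 2.51 h), Dhcr7 (0.40 at 2.66 h), Acat2 (0.52 at 2.09 h), Sqle (0.50 at 5.21 h) and Hmgcs1 (0.70 at 6.81 h) lay in the same night hours. Those of Fdft1 (0.53 ± 0.13), Ebp (0.29) and Msmo1 (0.38) lay at 21.4 to 23.7 h. Mvd, Dhcr7 and Sqle, like Cyp51, also passed the 12-h test below. Their fitted 24-h peak is therefore not necessarily the hour of their highest level. Fdft1, the squalene synthase, averaged 317 ± 88.8 CPM (SD, n = 4) at 12 AM and 108 ± 25.6 CPM at 12 PM. Genes of the endoplasmic reticulum stress response were rhythmic in 8 of 22 cases (36.4%, against 18.6% of all genes). Among them were Herpud1 (0.32 ± 0.03 at 22.6 h, adjusted p = 8.68e-04), Hspa5, the chaperone BiP (0.41 at 4.03 h), and Hsp90b1 (0.48 ± 0.07 at 6.73 h).

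Around 8 PM stood genes of respiration, protein turnover and mitochondrial translation. Of complex I genes, 21 of 36 were rhythmic with peaks from 19.855 to 20.999 h, and 34 of the 36 had a fitted peak between 18 and 24 h whether they passed or not. Of complexes III, IV and V, 21 of 34 were rhythmic (mean peak 20.5 h), of the proteasome 22 of 31 (20.2 h) and of mitochondrial ribosomal proteins 30 of 48 (20.6 h). All these shares were above the 18.6% of all genes. Ndufa6, a subunit of complex I, was at 201, 193, 225 and 212 CPM at 8 PM and at 123, 106, 92.7 and 98.5 CPM at 8 AM. Psmb1, a core subunit of the proteasome, was at 359, 359, 345 and 311 CPM at 8 PM and at 188, 169.5, 164 and 174 CPM at 8 AM. In both genes the groups were clear of each other, with amplitudes of 0.51 ± 0.09 (peak 20.5 h, adjusted p = 0.00213) and 0.49 ± 0.07 (20.6 h, adjusted p = 0.00115). Atp5h, of the ATP synthase, and Cox6c, of cytochrome oxidase, had amplitudes of 0.51 ± 0.08 and 0.53 ± 0.10 at 20.7 and 20.4 h, and Mrps33, of the small mitochondrial ribosomal subunit, 0.43 ± 0.07 at 20.3 h. The antioxidant list had 7 of 20 rhythmic genes, led by Txn1, thioredoxin (0.49 ± 0.07 at 20.7 h), while the autophagy list, with 4 of 22, was close to the share of all genes.

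Cytosolic ribosomal proteins had fitted peaks in the same hours, but few passed the test. The median amplitude of the 50 was 0.37, as it was for complex I genes, against 0.31 for the proteasome. Only 6 of 50 (12%) passed, below the 18.6% of all genes. Of the 50, 48 had a fitted peak between 18 and 24 h and 34 passed at an unadjusted p under 0.05. With the lymphocyte markers as a covariate 49 of the 50 passed, and without both 8 PM libraries low in adipocyte markers 0 did. Leaving out 8 PM replicate 1 alone left 0, and leaving out 8 PM replicate 4 alone gave 42. With the TEC share as a covariate 0 members of complex I, of complexes III to V, of the proteasome, of either ribosome and of the antioxidant list passed. Only 75 of all 18225 genes passed with it, so a count of 0 is not particular to these lists. With lymphocyte markers and TEC share together 8 genes of complex I (mean peak 7.66 h), 2 of complexes III to V (7.25 h), 7 mitochondrial ribosomal (7.10 h) and 6 antioxidant genes (7.31 h) passed, so the direction turned, and 0 of the proteasome passed. With lymphocyte markers alone 11 of complex I and 12 of complexes III to V passed. Over all genes 2084 passed with both covariates and 4442 with lymphocyte markers alone. The TEC share itself was lower at 8 PM (0.0294 to 0.0394%) than at 8 AM (0.0822 to 0.0973%), and its part in these results was otherwise not tested. With that covariate 10 of 23 clock genes passed, 4 of 13 glucocorticoid-responsive genes, 4 of 15 heat shock and cold-inducible genes, 3 of 15 clock output genes and 2 of 21 cholesterol genes.

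**Figure D4:**
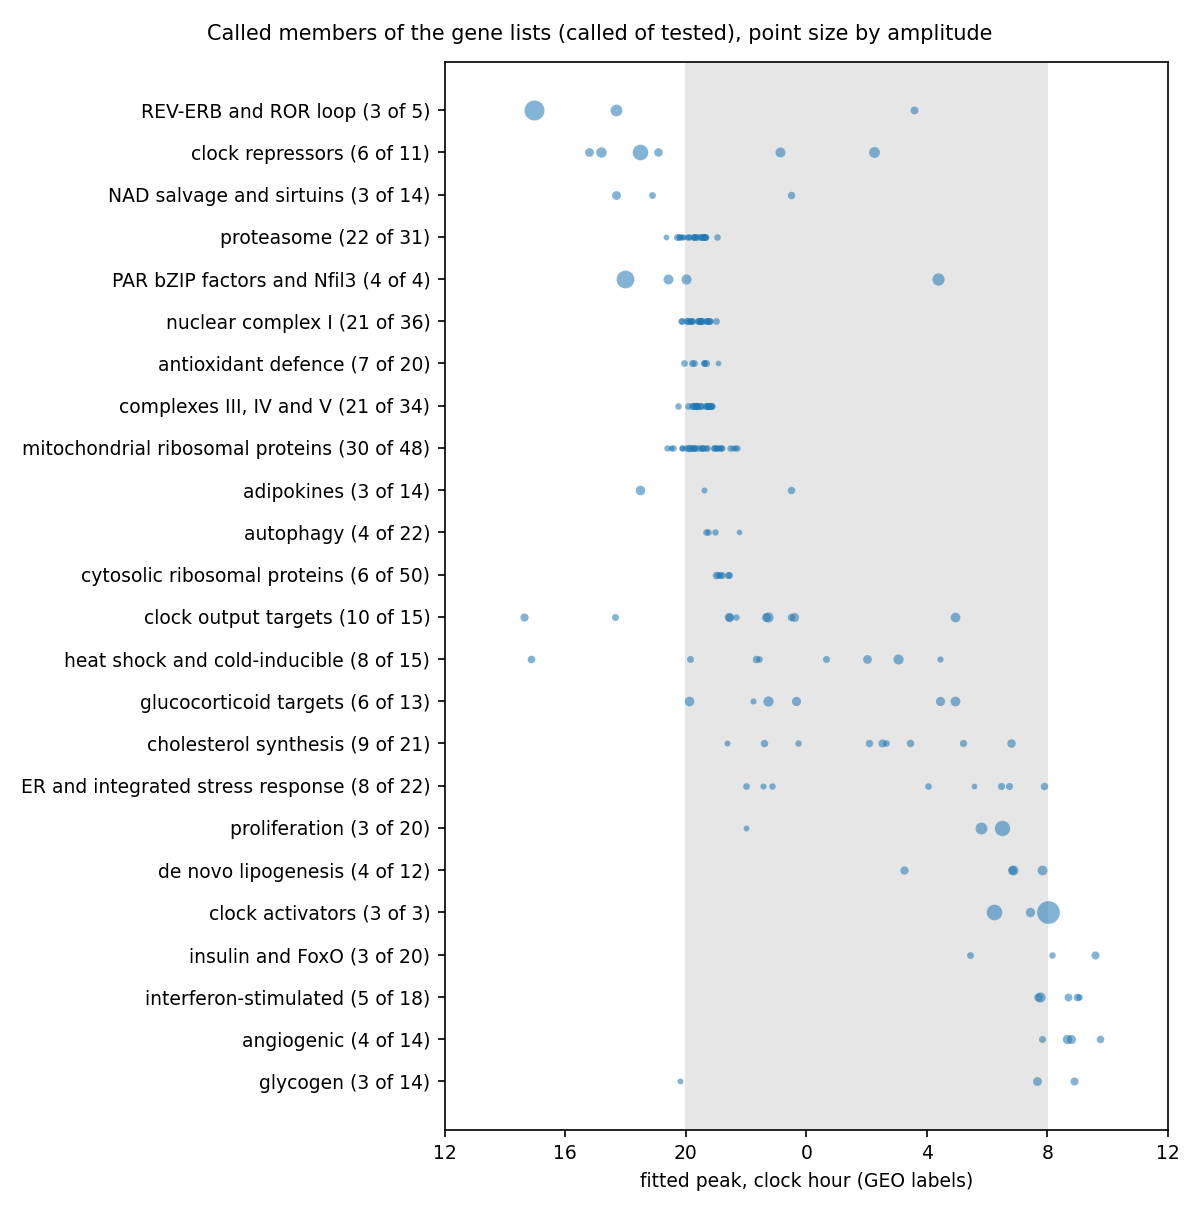
Peak hours of the rhythmic members of 24 gene lists in TAN fat, 1 point per gene with its size set by the amplitude, on an hour axis from noon to noon. Respiratory, proteasome and mitochondrial ribosomal genes sat near 20 h and glucocorticoid-responsive and cholesterol genes from evening to early morning. Endothelial and most lipogenic genes sat near 8 h. The hours are those of the fitted 24-h curve, not of the highest measured level.

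Around 8 AM stood large-amplitude genes of several kinds. The largest amplitudes of that window among genes with at least 10 counts in every library were those of Cr2 (2.55 at 7.03 h, adjusted p = 0.0140) and Bank1 (2.18 at 7.57 h), both known from B cells, and of Itga4 (1.86 at 7.41 h, adjusted p = 0.00193), an integrin of white blood cells. Itga4 was at 104, 84.6, 89.1 and 123 CPM at 8 AM and at 5.87, 7.88, 10.96 and 9.33 CPM at 4 PM. None of the 10 lymphocyte markers passed the test (3 at an unadjusted p under 0.05). Their median amplitude was 1.55 with a mean fitted peak at 6.78 h. Their sum was below 100 CPM in 3 of the 4 libraries of 4 PM. Its mean was highest at 8 PM, at 1423 CPM (36.7 to 2433 CPM), against 1181 CPM at 8 AM. Top2a, a topoisomerase of dividing cells, had an amplitude of 1.79 ± 0.30 at 6.49 h and overlapped between 8 AM and 8 PM. It was 1 of 3 rhythmic genes of 20 in the proliferation list (15%), near the 18.6% of all genes.

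Endothelial genes also peaked in the morning. Of 14 angiogenic genes 4 passed the test (Pecam1, Kdr, Cdh5 and Tie1, mean peak 8.75 h), against 18.6% of all genes, and these were also 4 of the 6 endothelial markers used. Without 8 PM replicate 4, 7 of the 14 passed, with lymphocyte markers as a covariate 11 and with the TEC share 0. Over all genes 4442 passed with lymphocyte markers as a covariate and 75 with the TEC share. Kdr, a receptor of the vascular endothelial growth factor, was at 81.6, 106, 98.0 and 97.8 CPM at 8 AM and at 16.3, 14.5, 48.4 and 49.9 CPM at 8 PM, with an amplitude of 0.78 ± 0.15 (peak 8.77 h, adjusted p = 0.00534). The lowest pair again came from the 8 PM replicates low in adipocyte markers, and the remaining 8 PM libraries were still below those of 8 AM. Interferon-response genes passed in 5 of 18 cases (mean peak 8.44 h), not far from the share of all genes, and in 0 with the TEC share as a covariate. Peg3, an imprinted gene, peaked at 9.25 h (1.10, adjusted p = 0.00583).

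Fat synthesis enzymes were rhythmic in 4 of 12 cases, against 18.6% of all genes. The count was 2 without 4 AM replicate 3, 6 without 8 PM replicate 4, 9 with lymphocyte markers as a covariate, and 1, at 23.2 h, with the TEC share. Over all genes those covariates gave 4442 and 75. Scd2, a desaturase, stood at 641, 917, 732 and 784 CPM at 8 AM and at 133, 138, 194 and 269 CPM at 8 PM, with an amplitude of 0.72 ± 0.14 (peak 6.82 h, adjusted p = 0.00499). Acly, which makes acetyl-CoA from citrate, was at 1341, 1890.2, 1818 and 1930.3 CPM at 8 AM and at 222, 157, 442 and 843 CPM at 8 PM (0.94 at 6.88 h, adjusted p = 0.0168). In both genes 8 PM had the lowest mean, and its libraries were below all those of 8 AM. Both also passed the 12-h test below, with 12-h peaks at 0.697 and 12.7 h (Scd2) and at 1.76 and 13.8 h (Acly). Their level at 8 AM was therefore not necessarily the highest of the day. The carboxylases Acaca (0.90 ± 0.23 at 7.84 h, adjusted p = 0.0464) and Acacb (0.66 at 3.25 h, adjusted p = 0.0263) completed the list. Fasn, fatty acid synthase, had a fitted amplitude of 0.34 ± 0.16 and did not pass (adjusted p = 0.454), nor did Elovl6 (adjusted p = 0.242) or the lipase Lpl (0.80 ± 0.23, adjusted p = 0.0907).

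In the other windows and around 8 PM, the genes named are those of largest amplitude among protein-coding genes with at least 10 counts in every library. In the 12 PM window these were Syne3, a linker of the nuclear envelope (0.98 ± 0.21 at 12.4 h), Fbn1, a fibrillin of the extracellular matrix (0.89 ± 0.18 at 11.6 h), and Tln2, a talin (0.87 at 10.3 h). Fbn1 was at 56.0, 35.9, 82.4 and 70.2 CPM at 12 PM and at 7.56, 30.4, 19.2 and 18.001 CPM at 12 AM. In the 8 PM window these were Crtac1 (1.45 ± 0.24 at 20.6 h), Pcsk4 (1.21 at 21.1 h) and Slc5a6, a vitamin transporter (1.05 at 18.3 h), and in the 4 AM window Nfil3, the chemokine Cxcl13 and Cry1. Crtac1 was at 28.7, 64.5, 72.1 and 50.8 CPM at 12 AM and at 12.9, 11.3, 49.7 and 94.3 CPM at 8 PM, where the lower pair were again replicates 1 and 2.

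Several functions of fat had no member that passed the edgeR test over all 24 libraries, which 18.6% of all genes passed. In fatty acid oxidation 0 of 21 genes passed, in branched-chain amino acid breakdown 0 of 16, among adipogenic factors 0 of 13, among lipogenic regulators 0 of 13 and in fatty acid uptake 0 of 10, all by edgeR at an adjusted p under 0.05. At an unadjusted p under 0.05, 3, 2, 4, 2 and 3 members of these lists passed in the same order. DESeq2 at an adjusted p under 0.05 passed 1 member of each list and 2 in fatty acid uptake, and limma passed 0, 0, 1, 1 and 1. These zeros depended on which libraries were used. Without the pair of 8 PM libraries low in adipocyte markers, 13 of 21 fatty acid oxidation genes (mean peak 20.6 h), 11 of 16 branched-chain (20.5 h), 5 of 13 adipogenic, 5 of 13 lipogenic regulator and 4 of 10 uptake genes passed. Over all genes the count rose from 3392 (18.6%) to 6682 in that fit, so the rise was not confined to these lists. Whether it was larger in these lists than over all genes was not tested. With lymphocyte markers as a covariate the counts were 6 (mean peak 6.12 h), 3, 4, 3 and 4, and with lymphocyte markers and TEC share 11 (7.26 h), 11 (7.30 h), 2, 2 and 3. Over all genes 4442 passed with lymphocyte markers and 2084 with both covariates. The thermogenic list had 1 of 18 (Ryr2), the tricarboxylic acid cycle 1 of 20 (Sdhc) and the genes encoded by mitochondrial DNA 1 of 13. Low counts here also depended on the libraries. Without the same pair of 8 PM libraries, 4 of 18 thermogenic genes (mean peak 18.6 h) and 13 of 20 of the tricarboxylic acid cycle (20.4 h) passed. For genes encoded by mitochondrial DNA the count stayed at 1 of 13. Sdhc kept its call in 10 of 36 alternatives. Ucp1, the uncoupling protein of thermogenic fat (adjusted p = 0.0665), Lep, the hormone leptin (0.336), Slc2a5, a fructose transporter (0.433), and Ppp1r3b, a glycogen-targeting subunit (0.111), did not pass. Lep was at 109, 90.2, 1066 and 2174 CPM at 8 PM, a wider range than at any other time. The lowest pair were the replicates low in adipocyte markers.

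With meals at both ends of the night, a rhythm of 12 h was tested as well. Of 18225 genes 80 passed (0.439%; 4003 at an unadjusted p under 0.05), and 48 of the 80 also had a 24-h rhythm. Their paired peaks lay nearest 8 AM and 8 PM in 41 genes, nearest 12 AM and 12 PM in 22 and nearest 4 AM and 4 PM in 17. The count rested on single libraries, with 13 genes without 4 AM replicate 1 and 3679 without 8 PM replicate 4.

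Angptl4 and Cry1 had the lowest adjusted p of the 12-h test. Angptl4 encodes an inhibitor of lipoprotein lipase that is known to rise in fasting. It stood at 507, 397, 354 and 279 CPM at 4 AM, at 258, 275.5, 205 and 229.8 CPM at 4 PM and at 19.2, 23.8, 64.5 and 59.3 CPM at 8 PM. At 8 AM and 12 PM it was at 151 to 189.5 CPM. The 4 AM libraries were above all others and the 4 PM libraries above those of 8 AM and 12 PM, so that high values fell at 4 AM, between the meals, and at 4 PM, in the day without food, but not at 8 PM before the evening meal. The 12-h amplitude was 1.13 ± 0.13 with peaks at 2.92 and 14.9 h (adjusted p = 5.69e-04). Txnip, a regulator of glucose uptake, had its 12-h peaks at 2.78 and 14.8 h (0.75 ± 0.09, adjusted p = 0.00447) and no 24-h rhythm (adjusted p = 0.292). Txnip was at 1791, 1346, 1338 and 1248 CPM at 4 AM, 2239.7, 1516, 1359.7 and 1733 CPM at 4 PM and 634, 619, 563 and 479 CPM at 8 AM.

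Of 21 cholesterol genes 4 passed the 12-h test, against 0.439% of all genes. Cyp51 had 12-h peaks at 10.9 and 22.9 h (0.69 ± 0.09, adjusted p = 0.00181), and Mvd (0.78, adjusted p = 0.0170), Sqle (0.61, adjusted p = 0.0259) and Dhcr7 (0.47, adjusted p = 0.0158) passed too, with first peaks at 10.5 to 11.8 h. Mvd, mevalonate decarboxylase, was at 25.9, 44.9, 49.0 and 34.9 CPM at 12 AM, at 22.3, 24.7, 17.9 and 25.5 CPM at 8 AM and at 8.69, 12.4, 11.4 and 15.7 CPM at 4 AM. Its 4 AM libraries were below all those of 12 AM and 8 AM. Cry1 had 12-h peaks at 8.96 and 20.96 h (0.73 ± 0.08, adjusted p = 5.69e-04) and Rpia, of the pentose phosphate pathway, at 9.64 and 21.6 h (0.67, adjusted p = 0.0045). Hsph1 (0.77, adjusted p = 0.0172) and Dnaja1 (0.48, adjusted p = 0.0172) also passed. Acly (1.07 ± 0.20, peaks at 1.76 and 13.8 h, adjusted p = 0.0445) and Scd2 (0.78 ± 0.14, peaks at 0.697 and 12.7 h, adjusted p = 0.0170) passed, while Fasn (0.52, adjusted p = 0.183), Elovl6 (1.22, adjusted p = 0.0567) and Lep (0.31, adjusted p = 0.454) did not.

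**Figure D5:**
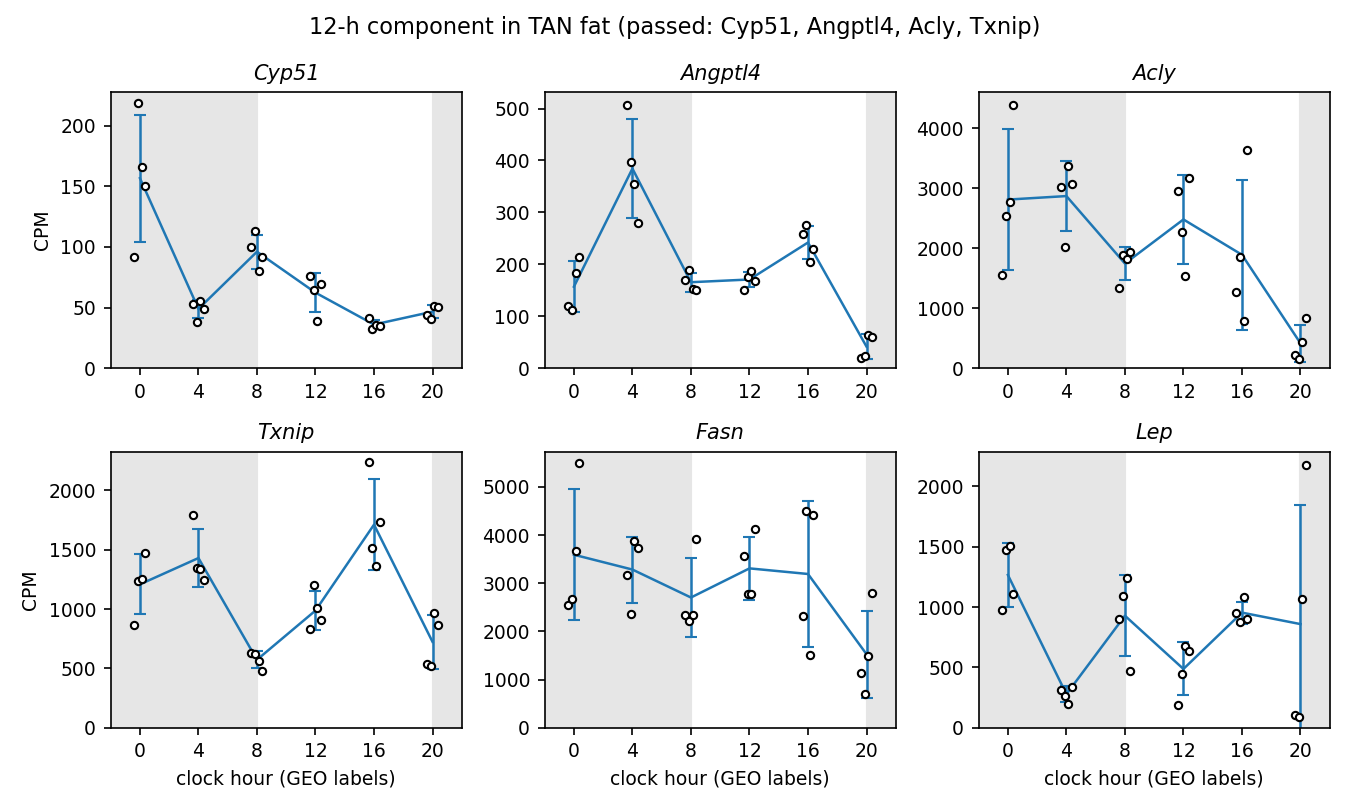
Level of 6 genes in TAN fat by clock hour in CPM, with points for libraries, a line through the means of 4, bars of 1 SD and grey for the dark hours. Cyp51, Angptl4, Acly and Txnip passed the test for a 12-h rhythm, and Fasn and Lep did not.

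Against ad-lib mice, the 24-h rhythm differed in 4027 of 19977 genes (20.2%), and in 3894 of these the fitted peaks of the diets were more than 6 h apart. Only 16 genes had a 24-h rhythm in ad-lib by the same test (2270 at an unadjusted p under 0.05), so nearly all of these ad-lib peak hours come from curves that did not pass. The count of differences fell to 152 without replicate 3 of every group, and to 0 with the TEC share as a covariate. The order of the TEC medians over the day was opposite in the diets, as given above. Lrrk2, a kinase gene, was at 58.8, 70.9, 75.3 and 79.8 CPM at 8 AM and at 11.4, 18.5, 11.4 and 15.7 CPM at 8 PM in TAN, and its fitted rhythm was 1.15 at 7.99 h in TAN and 0.54 at 19.9 h in ad-lib (adjusted p of the difference 1.01e-04). Rasgrp3 (1.12 at 7.60 h against 0.51 at 19.5 h) and Wdr83os (0.60 at 20.2 h against 0.30 at 7.30 h) followed, both at an adjusted p of 1.42e-04.

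For most clock genes the fitted peaks of the diets were close. Of the 16 with a TAN rhythm, 15 had a peak within 3 h of the ad-lib peak, and the remaining gene, Bhlhe40, was 3.07 h away. The TAN amplitude was the larger in 19 of 23, and that share was not counted over all genes. The difference passed the test in 5 of 23, close to the 20.2% of all genes. These were Arntl (amplitude 1.83 in TAN and 0.69 in ad-lib, adjusted p = 0.00239), Nr1d1 (2.55 and 1.76, peaks at 14.9 and 13.4 h, adjusted p = 0.00365), Dbp (2.20 and 1.42, adjusted p = 0.0211), Clock (0.82 and 0.21, adjusted p = 0.0241) and Npas2 (3.02 and 2.15, adjusted p = 0.0367).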

How the data were processed

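RNA of inguinal fat was sequenced in 48 samples. The authors deposited a table of raw counts per gene and library, together with gene coordinates and the gene length in bases, and 98.1% of its 54532 genes have the boundaries of GENCODE M21 (GRCm38). A deposited table of group-mean FPKM was not used. The submitters' processing notes list TopHat 1.3.3, DESeq2 1.20.0, limma and edgeR, and the builds mm9, mm10 and GRCm38, with no role given for any. The strand setting of the counting is not given in the sources used here. No unmapped column of sample values was left in the count table.

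Groups followed the labels. Of 54532 genes, 31161 had a count in TAN and 18225 passed edgeR's filterByExpr (minimum count 10). Counts were scaled by TMM, and edgeR 4.0.16 (R 4.3.3) fitted the 6 times as a mean, a 24-h and a 12-h cosine and sine and an alternating term. The quasi-likelihood F test of both 24-h terms, or of both 12-h terms, was adjusted by Benjamini-Hochberg over all genes tested. Amplitudes, peak hours and their SE came from least squares on log2 CPM (prior count 2). CPM are on the TMM scale. The test along hours 2 and 14, and other alternatives that concern the TEC share or leave out several libraries, were added after seeing the data. The difference between diets was an interaction in 1 fit of 48 libraries (19977 genes). Alternatives used limma 3.58.1, DESeq2 1.42.0 and other filters, scalings, covariates and left-out libraries. The fits of the rhythm and of the difference between diets were tested on simulated data.

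The members and the 41 function and 8 marker lists were chosen with earlier results of these data known. Named genes were all clock genes, the 3 of largest amplitude per window, up to 3 per list of lowest adjusted p, and the 3 of lowest adjusted p for the 12-h rhythm and for the diets. The limit of at least 10 counts in every TAN library held for the window, 12-h and diet genes, not for clock genes or list members. A few genes that the study discusses were added, and other genes were named after their values were seen. Some clock genes enter the counts but are not reported here by name. Depth was 15685080 to 25440243 counts per library, and intervals or floors cover counting error only.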

Additional observations from a re-analysis of the deposited data

Results flagged for a closer look

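Of 72 groups of 4 TAN libraries examined for a lone extreme library, 7 had one, by the gap to its neighbour over the range of the group (Dixon's test), and chance gives about 1 in 20. Cry1 at 12 PM had 1 library at 13.8 CPM, and Tsc22d3 at 12 AM had 1 at 657 CPM, above 309 and 315 CPM of its neighbours. At 4 PM, replicate 3 was alone both in its 23841377 counts and in its 298 CPM of lymphocyte markers. At 12 PM, 1 library had a TEC share of 0.109%. Skeletal muscle markers reached 575 CPM in 1 library of 12 AM and 512 CPM in 1 of 8 PM.

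The 24-h rhythm differed between the diets, by the interaction test of edgeR, in 4027 genes, among them Arntl (adjusted p = 0.00239), Nr1d1 (0.00365), Dbp (0.0211), Clock (0.0241), Npas2 (0.0367), Lrrk2 (1.01e-04), Rasgrp3 (1.42e-04) and Wdr83os (1.42e-04). Leaving out replicate 3 of every group left 152 genes, and the TEC share as a covariate left 0.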

How the results depend on the processing

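The number of genes with a 24-h rhythm in TAN (3392) was within 1.5 times under limma, DESeq2, RLE scaling, both other filters, the fit of all 48 libraries, the lymphocyte or muscle covariate and the removal of mitochondrially encoded genes. It was 6099 at an unadjusted p under 0.05, 1240 at an adjusted p under 0.01, 1756 at an amplitude of at least 0.5, 48 along hours 2 and 14, and 2174 when only the 24-h cosine and sine were in the fit. With the TEC share as a covariate it was 75, with lymphocyte markers and TEC share 2084, without both libraries low in adipocyte markers 6682, and without the 6 libraries low in lymphocyte markers 5325. Leaving out each library in turn gave 2386 (without 8 AM replicate 4) to 4293 (without 8 PM replicate 2).

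The shares of rhythmic genes peaking near 8 AM and near 8 PM were 51.0% and 33.7%. They were 58.2% and 28.5% with no filter, 38.9% and 43.8% with 10 counts in every library, 43.2% and 41.7% with RLE, 63.8% and 21.95% with limma, 45.2% and 36.7% with DESeq2, 52.8% and 30.6% with all 48 libraries, 54.6% and 30.1% with the lymphocyte covariate, 52.9% and 31.9% with the muscle covariate, 18.7% and 17.3% with the TEC share, 43.2% and 37.2% with both, 47.1% and 36.3% without both libraries low in adipocyte markers, and 54.3% and 26.0% without the 6. Leaving out single libraries gave 45.1 to 55.2% and 30.0 to 39.6%.

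The 12-h count (80) was 4003 unadjusted, 6 at an adjusted p under 0.01, 41 with no filter, 234 with 10 counts in every library, 146 by limma, 1529 by DESeq2, 27 with only 24-h and 12-h terms, 414 with 48 libraries, 217 with both covariates and 624 without the 6 libraries. Leaving out single libraries gave 13 to 3679. The count of differences between diets (4027) was 6708 unadjusted, 1539 at an adjusted p under 0.01, 0 with the TEC share, 6244 without both libraries, and 152 to 4122 without one replicate number at a time. Leaving out each of the 48 libraries singly was not run for it.

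Labels give the groups the same replicate numbers. Of 60 same-numbered pairs of TAN libraries, 19 had correlated deviations above 0.1 (median 0.0118, from -0.362 to 0.482 over 5000 genes), so the numbers were not taken as pairs. With the replicate block the counts were 3489 for the 24-h rhythm, with 55.3% near 8 AM and 29.6% near 8 PM, and 130 for the 12-h rhythm.

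Of 107 rhythmic named genes, 85 kept their call without any single library and 21 under all alternatives. With the TEC share as a covariate 84 lost it, and with the lymphocyte covariate 13. A peak moved by more than 6 h in 24 cases, given here by the amplitude under the alternative. With the TEC share these were Lpin2 (0.28), Sdhc (0.0745), Nnmt (0.23), Pik3ca (0.17), Prdx1 (0.0419) and Map1lc3b (0.0485). With both covariates they were Khk (0.26), Gyg (0.0862), Gpat4 (0.22), Lpin2 (0.58), Sdhc (0.56), Ndufa6 (0.0987), Ndufa8 (0.0931), Ndufa13 (0.20), Nnmt (0.78), Pik3ca (0.0828), Adipor1 (0.15), Ier3 (0.11), Prdx6 (0.31), Prdx1 (0.37), Atg5 (0.0760), Gabarap (0.18), Map1lc3b (0.42) and Mrps33 (0.0573). The cause of these changes was not tested. The 6 times of day with 4 libraries each leave peaks known to a median SE of 0.83 h.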
